A study of Mus musculus with 9 samples.

Results

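The 9 genes Gria1 to Gria4 and Grik1 to Grik5 encode the subunits of the AMPA and kainate receptors of the mouse. They were taken by symbol, as every array probe set that the platform annotation assigns to one of these genes alone, and make up 9 of the 16770 genes tested. Of their 250 probe sets, 240 were bright enough to be used. RNA was measured on Affymetrix Mouse Exon 1.0 ST arrays, which carry a probe set for most exons, so that a gene can be read as a whole or probe set by probe set. The cells were cortical neurons of C57BL/6 embryos of embryonic day 15 (E15), grown with serum, BDNF and CNTF and given AraC, an inhibitor of dividing cells, a day after plating. On day 5 each culture received, for 4 h, a lentivirus with a short hairpin RNA, and RNA was taken on day 11, per the sample labels. The series' design text instead puts the RNA 11 days behind transfection, so the length of the knockdown is not settled. The hairpin was shTdp-43-1 or shTdp-43-2, both against the mRNA of the RNA-binding protein Tdp-43, or the control hairpin shCont, with 3 arrays per group, so that virus, strain and culture were shared by all groups. The labels give neither the promoter of the hairpins nor the share of cells infected. They also do not say whether the arrays of a group came from separate cultures, so p-values measure the spread between these samples, which may be technical.

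AMPA receptors are tetramers of GluA1 to GluA4, the products of Gria1 to Gria4, and carry most of the fast excitatory current between neurons of the brain. The GluA2 subunit, once its RNA has been edited at the pore, keeps calcium out, so receptors without it let calcium in. Kainate receptors are tetramers of GluK1 to GluK5, from Grik1 to Grik5. GluK1 to GluK3 can form channels by themselves, whereas GluK4 and GluK5 bind kainate with high affinity and need one of the other three to make a channel, and kainate receptors tune release and excitability more than they carry the current.

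Array labels were checked first on Tardbp, the gene of Tdp-43. Its log2 gene value averaged 8.21 ± 0.35 with shTdp-43-1 and 8.23 ± 0.34 with shTdp-43-2, against 9.92 ± 0.15 with shCont (SD, n = 3 each). With shTdp-43-1 it fell by 69.6% and with shTdp-43-2 it fell by 69.1% (adjusted p by limma, 0.000349 and 0.000109). Falls this alike tell knockdown arrays from control arrays, but could not show swapped hairpin labels or replicate numbers. Gene values of 2 arrays of one group correlated at 0.985 to 0.994 across genes. Such a correlation is set mostly by differences in level between genes and cannot show whether an array is off. Median gene values of the arrays ran from 8.75 to 8.94, and single arrays that differed are described below. Marker averages used all probe sets of a gene, dim ones included, and markers are named as below the brightness threshold by that average. Calls used the gene values from bright probe sets. A list of 9 neuron markers averaged 11.10 to 11.28 with shTdp-43-1, 11.06 to 11.20 with shTdp-43-2 and 11.20 to 11.29 with shCont. Of the 9, 2 were called lower with each hairpin, Neurod6 and Nefl, and none higher. For the mean of the hairpins, Slc17a7 was called higher (0.39) and Slc17a6 lower (-0.29, log2, limma, adjusted p = 0.0332 and 0.0241). Of all tested genes, 5.16% were called higher and 5.96% lower with shTdp-43-1, and 7.76% and 14.1% with shTdp-43-2. The 7 fibroblast and pericyte markers averaged 7.55 to 7.60, 7.45 to 7.58 and 7.90 to 7.93 in the same order of groups, with Lum below the brightness threshold. Of them 2 and 4 were called lower with shTdp-43-1 and shTdp-43-2, while Col1a1 and Col1a2 lay 0.14 (log2) higher with each hairpin, without a call. Astrocyte markers lay at 9.58 to 9.65, 9.45 to 9.56 and 9.61 to 9.78, with 1 and 3 of 8 called lower, and the 6 microglia markers at 6.39 to 6.60, 6.30 to 6.60 and 6.28 to 6.45, with P2ry12 below the threshold. Inhibitory neuron markers lay at 9.97 to 10.20, 9.89 to 9.90 and 10.00 to 10.18, but single genes moved in opposite directions, with 2 of 8 called higher and 1 lower with shTdp-43-1, and 1 higher and 3 lower with shTdp-43-2. Gad2 rose with both (0.69 and 0.65), Gad1 rose with shTdp-43-1 (0.29) and fell with shTdp-43-2 (-0.32), and Sst fell with shTdp-43-2 (-1.30, log2). Neural progenitor markers lay at 8.51 to 8.66, 8.67 to 8.92 and 8.66 to 8.73, with Eomes lower with both hairpins (-0.34 and -0.41) and Nes higher with shTdp-43-2 (0.60), and oligodendrocyte lineage markers at 9.33 to 9.44, 9.22 to 9.38 and 9.30 to 9.34. Of the endothelial markers Cldn5, Flt1 and Tek averaged below the threshold. Flt1 and Tek, like P2ry12, still had enough bright probe sets to be tested. Tek was called higher with shTdp-43-2 (0.27, limma, adjusted p = 0.0472). Motor neurons are named in the design text of the series. Of the 6 motor neuron markers, Chat and Slc18a3 averaged below the threshold, while Mnx1, Isl1, Lhx3 and Slc5a7 did not. Their list averaged 6.24 to 6.53 on all arrays. Chat was among the 5 that could be tested, and none of these was called with either hairpin. Whether the cultures held motor neurons was not tested. The part of these shifts in the values of the receptor genes was not tested, and in RNA from whole cultures fewer cells of a type and less RNA per cell cannot be told apart.

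Against shCont, the subunit genes differed little, and the only calls with a single hairpin were Grik4, which fell with shTdp-43-1, and Gria1 and Grik2, which rose with shTdp-43-2. With shTdp-43-1, 0 of the 9 genes were called higher and 1 lower, at a background of 5.16% of all tested genes called higher and 5.96% lower. With shTdp-43-2, 2 were called higher and 0 lower, at a background of 7.76% and 14.1%. The mean of both hairpins called those same 3 genes, 2 higher and 1 lower, at a background of 7.42% and 11.9%. Each of these 3 calls for the mean held in only 6 or 7 of 18 alternative settings, and leaving out single arrays gave 0 to 2 called genes in all. Counts this small are near those shares. No subunit gene was called with both hairpins, a count for which the share of all genes was not taken. On the log2 scale their median change with shTdp-43-1 was -0.0225 and with shTdp-43-2 it was -0.0026, beside 0.0060 and -0.0075 over all tested genes. The hairpin comparisons share the shCont arrays and are not independent of each other.

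**Figure D1:**
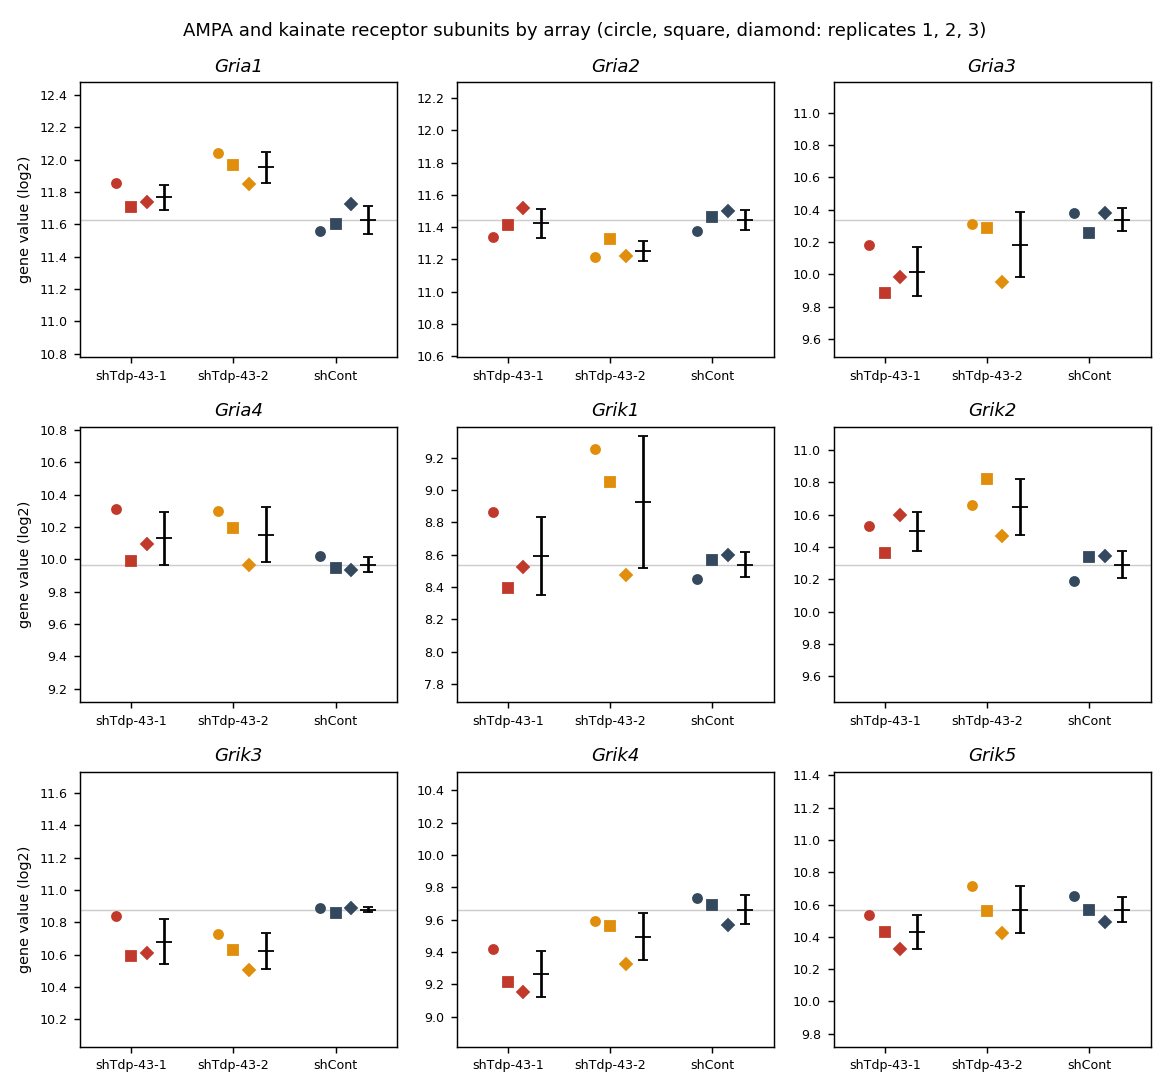
Gene values (mean log2 of a gene's probe sets, y axis) of the 9 subunit genes on each array, by group (x axis), with circles, squares and diamonds for replicates 1, 2 and 3, and the mean with SD as a bar at the right of each group; the grey line is the shCont mean and every panel spans the same log2 range. Grik4 lay below shCont on all 3 shTdp-43-1 arrays, Gria1 and Grik2 lay above it on all 3 shTdp-43-2 arrays, and Grik1 was the most spread within the hairpin groups.

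Among the AMPA receptor genes, Gria1, which encodes GluA1, read 11.85, 11.71 and 11.74 with shTdp-43-1, 12.04, 11.96 and 11.85 with shTdp-43-2, and 11.56, 11.60 and 11.72 with shCont (log2). All 3 shTdp-43-2 arrays were above all shCont arrays, while 1 shTdp-43-1 array fell among them. Gria1 rose by 0.32 ± 0.085 (SE) on the log2 scale with shTdp-43-2, which is 25.2% (limma, adjusted p = 0.0179). With shTdp-43-1 the difference was 0.14 ± 0.085 and did not pass (limma, adjusted p = 0.312), and the test of the difference between the hairpins did not pass (0.19, limma, adjusted p = 0.196). The call with shTdp-43-2 was lost without shTdp-43-2 replicate 1 (0.28, adjusted p = 0.0755), shCont replicate 1 (0.29, adjusted p = 0.0762) or shCont replicate 2 (0.31, adjusted p = 0.0627).

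Gria2 encodes GluA2, the subunit that sets calcium entry. It read 11.34, 11.41 and 11.52 with shTdp-43-1, 11.21, 11.32 and 11.22 with shTdp-43-2, and 11.38, 11.46 and 11.50 with shCont. The shTdp-43-2 arrays were all below the shCont arrays and the shTdp-43-1 arrays were mixed with them. Neither difference passed the test, at -0.0225 ± 0.080 with shTdp-43-1 (limma, adjusted p = 0.878) and -0.19 ± 0.080 with shTdp-43-2 (limma, adjusted p = 0.113). The 95% interval with shTdp-43-2 ran from -0.37 to -0.0179. Gria2 was called lower with shTdp-43-2 in 1 of 19 alternative settings, trend and robust eBayes (limma, adjusted p = 0.0499).

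Gria3, the gene of GluA3, read 10.18, 9.89 and 9.98 with shTdp-43-1, 10.31, 10.29 and 9.96 with shTdp-43-2, and 10.38, 10.26 and 10.38 with shCont. Here the shTdp-43-1 arrays were all below shCont and the shTdp-43-2 arrays overlapped with it. With shTdp-43-1 the Gria3 difference from shCont was -0.32 ± 0.11 (limma, adjusted p = 0.0867), and it was -0.15 ± 0.11 with shTdp-43-2 (limma, adjusted p = 0.370). It was called lower with shTdp-43-1 in 3 of 19 alternative settings. These were without shTdp-43-1 replicate 1 (-0.40, limma, adjusted p = 0.0469), without shTdp-43-2 replicate 3 (-0.32, adjusted p = 0.0395) and with array weights (-0.34, adjusted p = 0.0227). The shTdp-43-2 array enters this comparison only through the shared spread. Gria4, the gene of GluA4, read 10.31, 9.99 and 10.09 with shTdp-43-1, 10.30, 10.19 and 9.96 with shTdp-43-2, and 10.02, 9.95 and 9.93 with shCont. Both hairpin groups overlapped with shCont, and the differences of 0.16 ± 0.11 and 0.18 ± 0.11 did not pass (limma, adjusted p = 0.336 and 0.258).

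Of the kainate receptor subunits that can form channels alone, Grik2, the gene of GluK2, was the one called. It read 10.53, 10.36 and 10.60 with shTdp-43-1, 10.66, 10.82 and 10.47 with shTdp-43-2, and 10.19, 10.34 and 10.34 with shCont. Every array of both hairpins was above every shCont array, although shTdp-43-1 replicate 2 cleared the shCont range only narrowly. Grik2 rose by 0.36 ± 0.10 (SE) with shTdp-43-2, or 28.0% (limma, adjusted p = 0.0293), and stood 0.21 ± 0.10 higher with shTdp-43-1, which did not pass (limma, adjusted p = 0.223). The call was lost without any one shCont array (adjusted p = 0.113, 0.0601 and 0.0549 without replicates 1, 2 and 3) and without shTdp-43-2 replicate 1 (0.0757) or 2 (0.0997). It was also lost when dim probe sets were kept (adjusted p = 0.0742) and when a gene was read by its median probe set (0.0783).

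Grik3, the gene of GluK3, lay below shCont on every array of both hairpins and was not called in the main fit. Alternative settings called it in 1 of 19 with shTdp-43-1, 3 of 19 with shTdp-43-2 and 4 of 18 for the mean of the hairpins. It read 10.84, 10.59 and 10.61 with shTdp-43-1, 10.73, 10.63 and 10.51 with shTdp-43-2, and 10.89, 10.86 and 10.89 with shCont. The shCont arrays were the closest together of any subunit gene, with an SD of 0.016, and all 6 hairpin arrays were below them. With shTdp-43-1 the Grik3 difference from shCont was -0.20 ± 0.091 (limma, adjusted p = 0.180). It was -0.26 ± 0.091 with shTdp-43-2 (limma, adjusted p = 0.0657) and -0.23 for the mean of the hairpins (limma, adjusted p = 0.0646). Without shTdp-43-1 replicate 1 it was called lower with shTdp-43-2 (-0.26, limma, adjusted p = 0.0418) and for the mean of the hairpins (-0.27, adjusted p = 0.0250). With trend and robust eBayes it was also called in both of these comparisons (limma, adjusted p = 0.0339 and 0.0331), and with array weights it was called with shTdp-43-1 (-0.23, adjusted p = 0.0492) and for the mean (-0.23, adjusted p = 0.0237).

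Grik1, the gene of GluK1, read 8.86, 8.39 and 8.52 with shTdp-43-1, 9.26, 9.05 and 8.47 with shTdp-43-2, and 8.45, 8.57 and 8.60 with shCont. In shTdp-43-2 cultures 2 arrays were well above shCont and replicate 3 lay within it, which gave an SD of 0.41. The differences of 0.053 ± 0.18 with shTdp-43-1 and 0.39 ± 0.18 with shTdp-43-2 did not pass (limma, adjusted p = 0.867 and 0.148). Without shTdp-43-2 replicate 3, Grik1 was called higher with shTdp-43-2 than with shCont (0.62, limma, adjusted p = 0.00869) and than with shTdp-43-1 (0.56, adjusted p = 0.0215). Array weights gave both calls too (0.50 in each, limma, adjusted p = 0.0213 and 0.0392). Of 19 alternative settings, 3 gave the call against shCont and 2 the call against shTdp-43-1.

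Of the high-affinity subunits, Grik4, the gene of GluK4, read 9.42, 9.21 and 9.15 with shTdp-43-1, 9.59, 9.56 and 9.33 with shTdp-43-2, and 9.73, 9.69 and 9.56 with shCont. All shTdp-43-1 arrays were below all shCont arrays, while the shTdp-43-2 arrays reached into the shCont range. With shTdp-43-1 Grik4 fell by 24.3%, a log2 change of -0.40 ± 0.10 (SE), which passed the test (limma, adjusted p = 0.0279). With shTdp-43-2 the change was -0.17 ± 0.10 and did not pass (limma, adjusted p = 0.275), nor did the difference between the hairpins (0.23, limma, adjusted p = 0.177). The call was lost without shTdp-43-1 replicate 2 (adjusted p = 0.0877) or 3 (0.105), without shCont replicate 1 (0.105) or 2 (0.0925), and with the median probe set (0.0810). For the mean of the hairpins Grik4 was called at -0.29 (limma, adjusted p = 0.0418) and in 6 of 18 alternative settings. Among the settings that lost this call were centring of the arrays (-0.22, adjusted p = 0.0579) and quantile normalization (-0.22, adjusted p = 0.0555).

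Grik5, the gene of GluK5, read 10.54, 10.43 and 10.32 with shTdp-43-1, 10.71, 10.56 and 10.42 with shTdp-43-2, and 10.65, 10.57 and 10.49 with shCont. The groups overlapped throughout. Grik5 passed the test in neither comparison, at -0.14 ± 0.096 with shTdp-43-1 and -0.0026 ± 0.096 with shTdp-43-2 (limma, adjusted p = 0.363 and 0.989), and the 95% interval with shTdp-43-2 ran from -0.21 to 0.21, which leaves room for a shift in either direction.

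**Figure D2:**
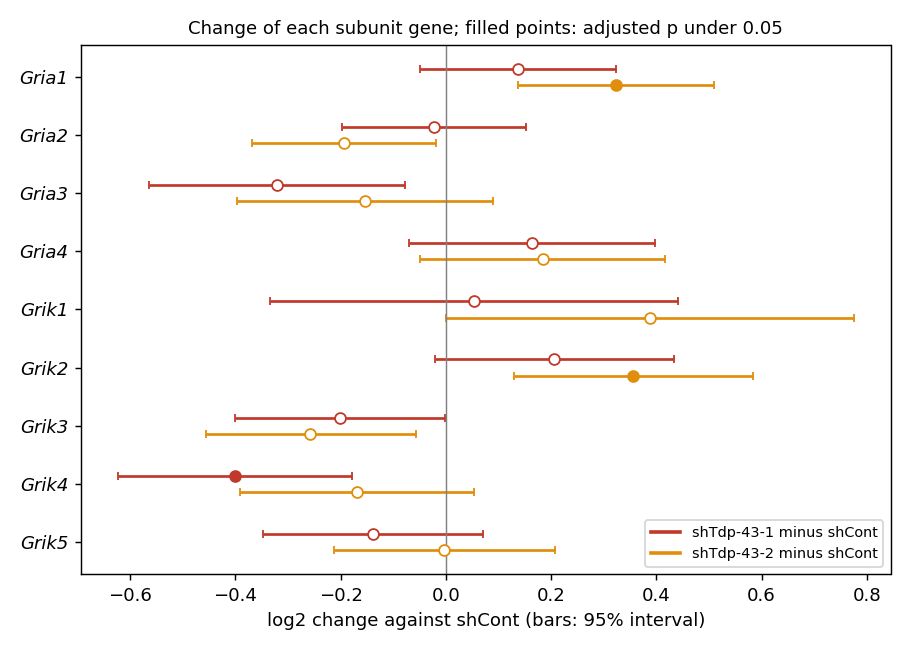
Log2 change of each subunit gene against shCont (x axis), with the 95% interval as a bar, in red for shTdp-43-1 and orange for shTdp-43-2; filled points passed an adjusted p under 0.05. Grik4 passed with shTdp-43-1 and Gria1 and Grik2 with shTdp-43-2, and no gene passed with both.

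Read by groups that do not overlap, 4 of the 9 genes lay apart from shCont on all shTdp-43-1 arrays, with Grik2 above and Gria3, Grik3 and Grik4 below, at a background of 16.9% of all genes above and 18.1% below. With shTdp-43-2 there were also 4, with Gria1 and Grik2 above and Gria2 and Grik3 below, at a background of 15.3% and 23.4%. In one direction with both hairpins there was 1 above, Grik2, and 1 below, Grik3, at a background of 7.72% of all genes above and 10.9% below. Directly between the hairpins, shTdp-43-2 against shTdp-43-1, 0 of the 9 genes were called by limma, at a background of 4.22% called higher and 7.31% lower, and 2 of the 9 had an unadjusted p under 0.05, against 25.4% of all genes.

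Arrays within a hairpin group shared a direction across the subunit genes. In the shTdp-43-2 group, replicate 3 was the lowest array for 8 of the 9 genes, against 47.0% of all tested genes, and replicate 1 the highest for 7, against 27.9%. In the shTdp-43-1 group, replicate 2 was the lowest for 6, against 26.4%, and replicate 1 the highest for 7, against 44.0%. On shTdp-43-1 replicate 2 and shTdp-43-2 replicate 3, 3 dim marker lists had the highest average of their group. These averages were 6.60 and 6.60 for microglia, 6.08 and 6.08 for endothelial cells and 6.53 and 6.41 for motor neurons. Without both of these arrays, Gria1 and Grik2 were still called higher with shTdp-43-2 and Grik1 was added, whereas Grik4 was no longer called with shTdp-43-1 (-0.38, limma, adjusted p = 0.0573).

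Because shifts shared by all genes of an array drop out of a ratio within that array, the balance of subunits of one receptor was also read per array. The 2 pairs were chosen after their values were seen, a gene that lay higher with one that lay lower, so their differences are a description with no test. The log2 difference of the Gria1 and Gria2 values was 0.51, 0.30 and 0.22 with shTdp-43-1, 0.83, 0.64 and 0.63 with shTdp-43-2, and 0.18, 0.14 and 0.23 with shCont. The shTdp-43-2 arrays were above shCont by 0.52 on average. For shTdp-43-1 the groups overlapped, and the average difference was 0.16.

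The log2 difference of the Grik2 and Grik3 values was -0.31, -0.23 and -0.0092 with shTdp-43-1, -0.070, 0.19 and -0.040 with shTdp-43-2, and -0.70, -0.52 and -0.55 with shCont. The difference from shCont averaged 0.41 with shTdp-43-1 and 0.61 with shTdp-43-2, and that the groups lie apart follows from how the pair was chosen. Probe brightness differs between genes, so these values do not say which subunit RNA was the more abundant.

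Promoter sequences are shown for Grik2 and Grik4, the kainate receptor genes with a call, as 250 bases before to 50 after the RefSeq start (GRCm38.p6). RefSeq starts were matched for 6 of the 9 genes. Capitals mark matches, on either strand, of the GC box, a motif bound by Sp factors.
Grik2, chr10:49788705-49789004, minus strand: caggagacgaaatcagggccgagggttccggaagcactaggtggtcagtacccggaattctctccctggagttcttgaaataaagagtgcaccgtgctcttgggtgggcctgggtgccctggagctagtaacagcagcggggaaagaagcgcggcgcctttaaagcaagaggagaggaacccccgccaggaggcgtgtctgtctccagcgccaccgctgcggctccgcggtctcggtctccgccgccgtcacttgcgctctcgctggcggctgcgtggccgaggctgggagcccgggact
Grik4, chr9:42944322-42944621, minus strand: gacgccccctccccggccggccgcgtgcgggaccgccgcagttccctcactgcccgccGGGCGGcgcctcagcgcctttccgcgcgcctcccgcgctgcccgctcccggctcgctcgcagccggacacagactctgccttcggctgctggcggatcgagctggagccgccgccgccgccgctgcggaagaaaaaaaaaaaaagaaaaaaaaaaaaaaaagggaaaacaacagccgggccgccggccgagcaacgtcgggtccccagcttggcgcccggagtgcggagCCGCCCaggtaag
The GC box was searched as GGGCGG, the TATA box as TATAAA and a GT repeat, the kind of sequence Tdp-43 binds as GU in RNA, as GTGTGT, on both strands. The share of 32851 RefSeq promoters of that length with a match was 35.7%, 13.6% and 17.4% in that order. Grik4 held 2 GC boxes, Grik5 held 2 and Grik3 held 7, while Grik2, Gria2 and Gria4 held none, and none of the 6 held the TATA box or the GT repeat in these letters. The matches describe the sequence only, since the arrays measured RNA and not these regions.

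The probe sets of a gene mostly moved with the gene, which in part follows from the gene value being their mean. The counts below are a description, and were not set against those of other genes. For Grik3 all 22 probe sets were lower with each hairpin, between -0.37 and -0.10 with shTdp-43-1 and between -0.36 and -0.092 with shTdp-43-2. For Gria1 23 of 24 were higher with each hairpin, for Grik2 27 of 30 with shTdp-43-1 and 28 of 30 with shTdp-43-2, and for Gria4 28 of 30 with each. Grik4 was lower at 21 of 24 probe sets with shTdp-43-1 and at 19 with shTdp-43-2, and Gria3 at 29 and 25 of 30. Grik1 was higher at 17 and 24 of 26, and Gria2 was lower at 21 and 30 of 34. Grik5 was lower at 18 of 20 probe sets with shTdp-43-1 but split evenly, 10 and 10, with shTdp-43-2. Probe sets of one gene share its RNA and arrays and are not replicates.

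**Figure D3:**
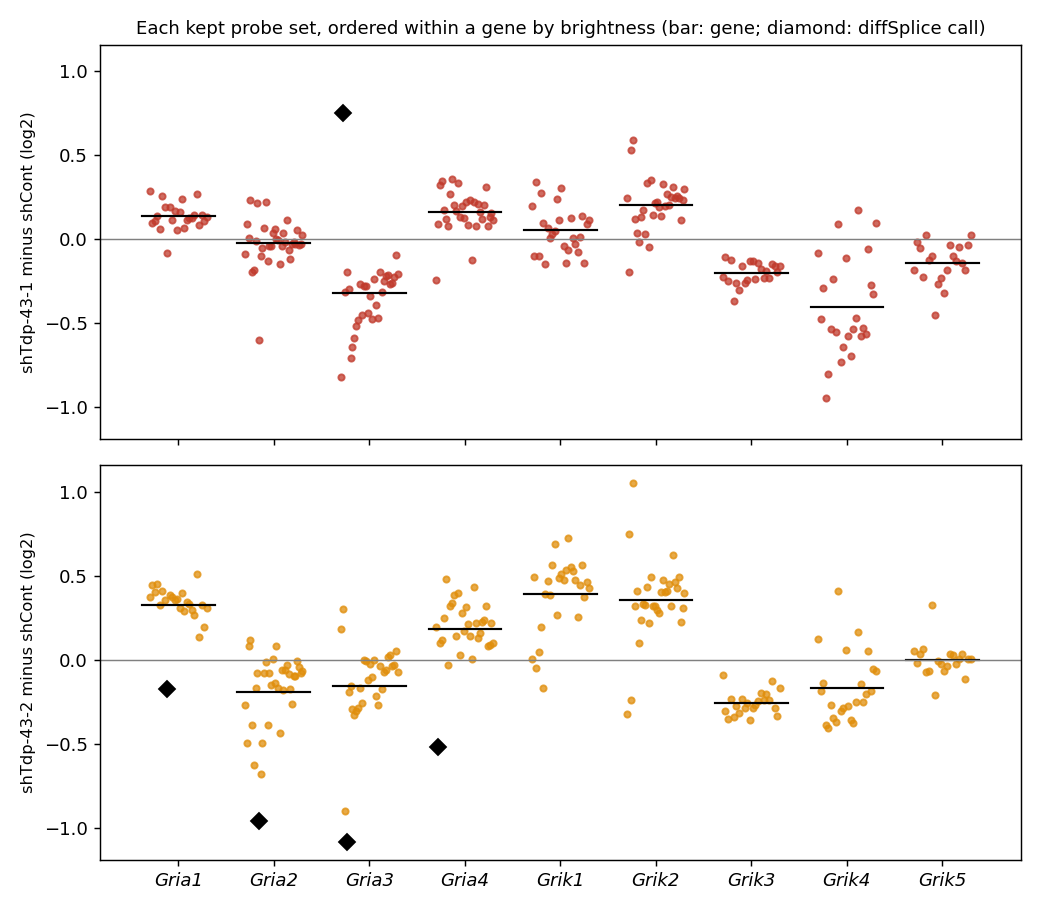
Log2 change against shCont (y axis) of each of the 240 probe sets, grouped by gene (x axis) and ordered by brightness within a gene, for shTdp-43-1 (top) and shTdp-43-2 (bottom); bars give the gene and black diamonds the probe sets whose change differed from the rest of their gene by diffSplice. Most points sit near their gene's bar, and the diamonds are 1 Gria3 probe set in the upper panel and 1 each of Gria1, Gria2, Gria3 and Gria4 in the lower panel.

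Probe sets were not matched to exons, so usage here means that of a single probe set against the rest of its gene. It was tested by limma's diffSplice. That test assumes the same spread for every probe set of a gene. It called 1 of the 240 probe sets with shTdp-43-1 and 4 with shTdp-43-2, at a background of 0.494% and 1.24% of all probe sets. It called 3 for the mean of the hairpins, in Gria2, Gria3 and Grik4, at 0.986%, and 4 between the hairpins, at 0.440%. When each probe set was tested with its own spread, limma called 0 of the 240 in all 4 comparisons, at a background of 0.00523%, 0.151%, 0.0354% and 0%. The numbers with an unadjusted p under 0.05 were then 18, 18, 16 and 16 of 240, near the 7.79%, 9.37%, 9.13% and 6.98% of all probe sets, and the lowest adjusted p-values were 0.150, 0.0666, 0.140 and 0.163. On simulated data with spreads that differ between probe sets, diffSplice made more false calls than true ones, and the test with each probe set's own spread did not. That setting goes against the assumption of diffSplice and meets that of the other test. It cannot say which test suits the real data. The calls below passed only with a spread shared within the gene, and none was made in one direction with both hairpins.

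In Gria2, probe set 4790630 read 10.63, 10.11 and 10.34 with shTdp-43-1, 10.37, 10.09 and 9.53 with shTdp-43-2, and 11.15, 10.87 and 10.86 with shCont. All 6 hairpin arrays were below all shCont arrays. Relative to the rest of Gria2, this probe set was lower with shTdp-43-2, at a log2 change of -0.79 (limma diffSplice, adjusted p = 0.00123, and 0.292 with its own spread). With shTdp-43-1 the value was -0.59 and did not pass (adjusted p = 0.0767). For the mean of the hairpins it was -0.69 (adjusted p = 0.00146). The call with shTdp-43-2 was lost without shTdp-43-2 replicate 3 (-0.57, adjusted p = 0.193) and the call for the mean without shCont replicate 1 (-0.56, adjusted p = 0.0979).

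In Gria3, probe set 5519561 read 6.98, 6.96 and 6.58 with shTdp-43-1, 6.29, 6.74 and 6.14 with shTdp-43-2, and 6.16, 6.23 and 5.87 with shCont. All shTdp-43-1 arrays were above all shCont arrays, while the gene as a whole lay below them. Relative to the rest of Gria3 it was higher by 1.11 with shTdp-43-1 (limma diffSplice, adjusted p = 0.00163; 0.150 with its own spread) and by 0.47 with shTdp-43-2, which did not pass (adjusted p = 0.60). It is a dim probe set, close to the brightness threshold of 6.07, and its shTdp-43-1 call was lost without shCont replicate 3 (0.98, adjusted p = 0.0864). For the mean of the hairpins it was 0.79 (adjusted p = 0.0139), a call lost without shCont replicate 1 (0.104) or 3 (0.342) and when dim probe sets were kept (0.0687).

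Another Gria3 probe set, 4959875, read 8.35, 6.89 and 7.53 with shTdp-43-1, 6.42, 7.72 and 5.96 with shTdp-43-2, and 7.69, 7.97 and 7.70 with shCont. The hairpin arrays were widely spread, and those of shTdp-43-1 lay on both sides of shCont. Relative to its gene it was lower with shTdp-43-2, at -0.96 (limma diffSplice, adjusted p = 0.00611; 0.501 with its own spread). That call was lost without shTdp-43-2 replicate 1 (-0.75, adjusted p = 0.140), shTdp-43-2 replicate 3 (-0.70, adjusted p = 0.174) or shCont replicate 2 (-0.82, adjusted p = 0.158).

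In Grik4, probe set 4306771 read 9.07, 8.46 and 8.66 with shTdp-43-1, 9.43, 9.14 and 8.57 with shTdp-43-2, and 8.68, 8.66 and 8.58 with shCont. The hairpin arrays lay on both sides of the shCont arrays although most of the gene was below them. For the mean of the hairpins it was higher relative to its gene by 0.56 (limma diffSplice, adjusted p = 0.0463; 0.241 with its own spread). Without any one shCont array its adjusted p was 0.269, 0.283 and 0.175 for replicates 1, 2 and 3, and it was also lost without shTdp-43-1 replicate 1 (0.0594) or 3 (0.0937) and without shTdp-43-2 replicate 1 (0.144) or 2 (0.0652).

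**Figure D4:**
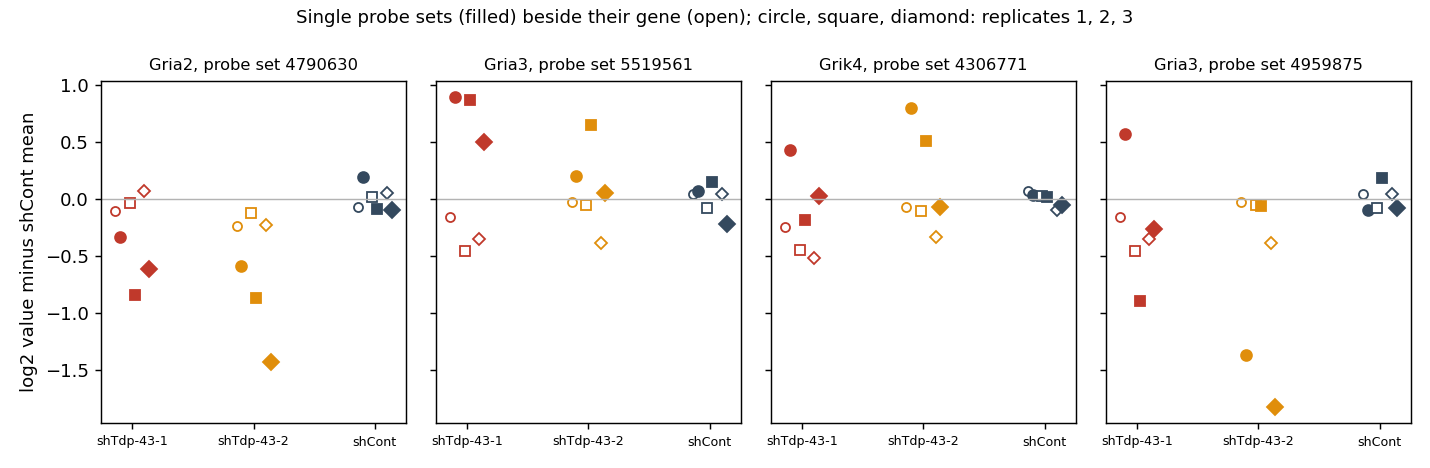
Values of 4 probe sets (filled) and of their gene (open) on each array, as log2 minus the shCont mean of each (y axis), by group (x axis), with circles, squares and diamonds for replicates 1, 2 and 3. The Gria2 probe set lies below its gene on all 6 hairpin arrays, the Gria3 probe set 5519561 lies above its gene on them, and Gria3 probe set 4959875 is scattered within both hairpin groups.

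The remaining shTdp-43-2 calls were Gria1 probe set 5494669, lower relative to its gene by a log2 change of -0.52 (limma diffSplice, adjusted p = 0.0323), and Gria4 probe set 5047734, at -0.73 (adjusted p = 0.0250). The first was lost without shTdp-43-1 replicate 3 (adjusted p = 0.050), shTdp-43-2 replicate 2 (0.0945) or 3 (0.208), or shCont replicate 1 (0.381) or 2 (0.131). The second was lost without shTdp-43-2 replicate 3 (0.781) or without shCont replicate 1 (0.0706), 2 (0.290) or 3 (0.0869). No probe set of Grik1, Grik3 or Grik5 was called in any comparison. Those of these genes with the smallest p for the mean of the hairpins were 4319476, 4814759 and 4861214. The Grik5 one read 9.79, 9.64 and 9.59 with shTdp-43-1, 10.06, 10.06 and 9.61 with shTdp-43-2, and 10.12, 10.15 and 10.10 with shCont, so that all hairpin arrays were below shCont (-0.27 relative to its gene, adjusted p = 0.740).

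Grik2 probe set 4896631 had the smallest p of that gene for the mean of the hairpins, without a call against shCont. It read 9.18, 8.56 and 8.75 with shTdp-43-1, 9.59, 9.33 and 8.95 with shTdp-43-2, and 8.26, 8.18 and 8.27 with shCont. All hairpin arrays were above shCont by more than the gene itself, and its usage with shTdp-43-2 was 0.72 (limma diffSplice, adjusted p = 0.0536). Of the 10 probe sets too dim to be used, 4 belong to Grik1, 4 to Gria3 and 2 to Grik2. The brightest left out were Grik2 4489731 at a mean log2 of 5.94 and Gria3 4889148 at 5.81, and the dimmest kept were Grik1 4743915 at 6.21 and 4936295 at 6.28.

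Receptor partners were read from lists of 41 genes, of which 37 were tested. With shTdp-43-1, 1 was called higher and 0 lower, and with shTdp-43-2, 5 were called higher and 9 lower. For the mean of the hairpins 4 were higher and 6 lower, and 1 gene was called in one direction with both hairpins. The shares of all genes called with each hairpin and for the mean are those given above. The share of all genes called with both hairpins was not counted, so that 1 gene has no background beside it. The 37 had a median log2 change of 0.0011 with shTdp-43-1 and of 0.0004 with shTdp-43-2.

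Of the 10 AMPA receptor auxiliary subunits tested, 1 was called higher with shTdp-43-1, and 3 higher and 1 lower with shTdp-43-2. Cacng5, which encodes a transmembrane AMPA receptor regulatory protein (TARP), was the gene called with both. It read 9.21, 9.31 and 9.01 with shTdp-43-1, 9.71, 9.60 and 9.63 with shTdp-43-2, and 8.68, 8.66 and 8.66 with shCont, so that the 3 groups did not overlap. Cacng5 rose by 0.51 ± 0.087 with shTdp-43-1 and 0.98 ± 0.087 with shTdp-43-2 (SE, log2; limma, adjusted p = 0.00422 and 3.03e-05). Cacng2, the gene of the TARP stargazin, averaged 10.21 ± 0.17, 10.74 ± 0.16 and 10.28 ± 0.091 with shTdp-43-1, shTdp-43-2 and shCont (SD, n = 3 each) and rose with shTdp-43-2 by 0.46 (limma, adjusted p = 0.0107). Gsg1l rose with shTdp-43-2 by 0.27 (limma, adjusted p = 0.0446), and Shisa6 fell by 0.42 (limma, adjusted p = 0.0215). Neither call held in every fit that left out 1 array. The Shisa6 call was lost without shTdp-43-2 replicate 3, shCont replicate 2 or shCont replicate 3 (limma, adjusted p = 0.0752, 0.0519 and 0.0846). The Gsg1l call was lost without any 1 of shTdp-43-1 replicates 2 and 3, shTdp-43-2 replicates 1 and 2 and the 3 shCont arrays (limma, adjusted p between 0.0536 and 0.157). It was also lost with the median probe set (0.12, adjusted p = 0.589), with the 25th percentile filter (0.0573), with no filter (0.0620) and with only the groups compared (0.0629).

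Neto2, one of the 2 auxiliary subunits of kainate receptors, averaged 11.80 ± 0.037 with shTdp-43-1, 11.55 ± 0.13 with shTdp-43-2 and 11.98 ± 0.14 with shCont (SD, n = 3 each). It fell with shTdp-43-2 by 0.43 (limma, adjusted p = 0.00704), and the other, Neto1, was not called. The delta receptor gene Grid1 was higher only for the mean of the hairpins among the comparisons with shCont, by 0.26 (limma, adjusted p = 0.0464), a call lost without any one of 7 arrays, shTdp-43-1 replicates 1 and 3, shTdp-43-2 replicates 1 and 2 and the 3 shCont arrays (adjusted p = 0.0675 to 0.162).

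Of 7 genes of receptor assembly and delivery, Frrs1l, needed to build AMPA receptors in the endoplasmic reticulum, was called. It read 11.24, 11.00 and 10.95 with shTdp-43-1, 9.82, 9.99 and 10.04 with shTdp-43-2, and 11.20, 11.04 and 11.09 with shCont. The shTdp-43-2 arrays stood well below all others, and the shTdp-43-1 arrays were mixed with shCont. Frrs1l fell by 55.3% with shTdp-43-2 (limma, adjusted p = 2.24e-05), with a log2 change of -1.16 ± 0.097 (SE). The test of the difference between the hairpins gave -1.11 (limma, adjusted p = 8.17e-05).

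Of 10 scaffolds and anchors, 0 were called with shTdp-43-1, and 1 was called higher and 3 lower with shTdp-43-2. Dlg4, the gene of PSD-95, averaged 11.58 ± 0.082, 11.64 ± 0.11 and 11.34 ± 0.075 with shTdp-43-1, shTdp-43-2 and shCont (SD, n = 3 each) and rose with shTdp-43-2 by 0.30 (limma, adjusted p = 0.0280). The Dlg4 call was lost without any 1 of shTdp-43-2 replicates 1 and 2 and shCont replicates 2 and 3 (limma, adjusted p between 0.0679 and 0.102), and with the 25th percentile filter (0.107), no filter (0.114) or the median probe set (0.0972). Akap5, whose product anchors kinases and phosphatases at the receptor, averaged 9.72 ± 0.23, 8.79 ± 0.11 and 9.60 ± 0.082 in the same order and fell with shTdp-43-2 by 0.81 (limma, adjusted p = 0.000473). Dlg3, the gene of SAP102, fell with shTdp-43-2 by 0.43 and Pick1, which binds GluA2, by 0.35 (limma, adjusted p = 0.00431 and 0.00568).

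Of 4 extracellular organisers tested, C1ql3 rose with shTdp-43-2 by 0.40 (limma, adjusted p = 0.00280). Nptx1, a secreted pentraxin that gathers AMPA receptors, read 9.42, 9.27 and 9.05 with shTdp-43-1, 8.50, 8.42 and 8.29 with shTdp-43-2, and 9.44, 9.24 and 9.31 with shCont. Again the shTdp-43-2 arrays were apart from both other groups. Nptx1 fell by 0.92 ± 0.11 (SE) with shTdp-43-2 (limma, adjusted p = 0.000145).

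The RNA editing enzymes bear on GluA2, whose pore site is edited by the product of Adarb1. Adarb1 averaged 9.40 ± 0.20 with shTdp-43-1, 8.77 ± 0.21 with shTdp-43-2 and 9.28 ± 0.091 with shCont (SD, n = 3 each) and fell with shTdp-43-2 by 0.51 (limma, adjusted p = 0.0127). That call was lost without shTdp-43-2 replicate 1 (-0.42, adjusted p = 0.0528). Adar fell with shTdp-43-2 by 0.41 (limma, adjusted p = 0.00313), and Adarb2 was not called. The arrays do not read editing itself.

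**Figure D5:**
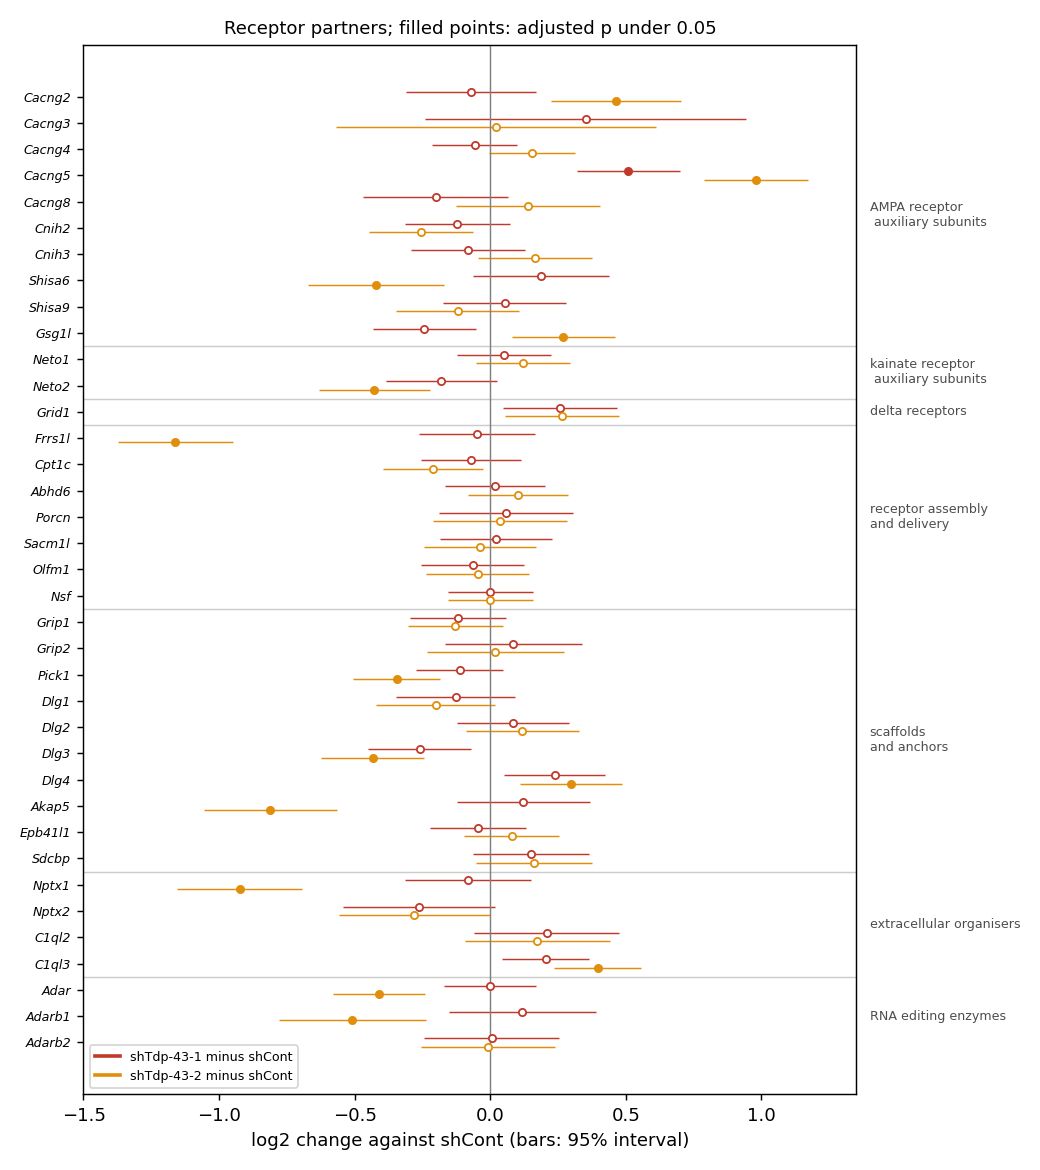
Log2 change against shCont (x axis) with 95% intervals of the 37 partner genes, grouped by role (right), in red for shTdp-43-1 and orange for shTdp-43-2; filled points passed an adjusted p under 0.05. Cacng5 is filled in both colours, while Frrs1l, Akap5, Nptx1, Adar and Adarb1 are filled to the left for shTdp-43-2 alone.

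The genes whose values over the 9 arrays were most like those of Grik4 were Ppp1r14c (Pearson r = 0.984), Sephs2 (0.983) and Trappc3 (0.983), and none of the 3 was called against shCont. Those most like Gria1 were Psg16 (0.990), Nus1 (0.984) and Bicra (0.983). All 3 were higher with shTdp-43-2 than with shCont (0.83, 0.23 and 0.32 on the log2 scale). They were chosen by their likeness to Gria1 on these same arrays, so that shared direction follows from the choice. The arrays of a group share a culture condition and each array one normalization, and the r values are a description of the closest of 16770 genes.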

How the data were processed

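The deposited values are log2 signals of 1256831 probe sets on 9 arrays. The authors made them with RMA in Expression Console (Affymetrix) as an all-exon analysis, per the labels. The build mm9 is named in the submitters' processing notes; versions of these tools were not given there. RMA brings all arrays to one distribution, so a change shared by most probes is largely removed, and it pulls dim probe sets towards background. Precision is limited by the number of arrays.

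Gene symbols came from the platform annotation (318760 with 1 symbol, 6684 with several, 931387 with none), with symbols updated through RefSeq (18006 current, 4227 updated, 63 kept as given). Probe sets with a mean log2 value under the table median, 6.07, were left out, and a gene's value is the mean of the rest, for genes with at least 3. This gave 16770 genes from 248701 probe sets.

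All 9 arrays were fitted with limma 3.58.1 (lmFit and eBayes, R 4.3.3), each hairpin and the mean of both against shCont and shTdp-43-2 against shTdp-43-1, with Benjamini-Hochberg adjustment over all genes and calls at an adjusted p under 0.05. Single probe sets were tested with diffSplice of limma over all 248701 of them. A second test, chosen after seeing the data, used each probe set's own spread on its difference from the mean of the others of its gene. The gene test and both probe set tests were tested on simulated data with the real means and spreads. There diffSplice made more false calls than true ones and the others did not. Those spreads differed between probe sets, against the assumption of diffSplice, so the outcome does not weigh its calls in the real data. Alternatives were other filters, the median probe set, centring, quantile normalization, robust eBayes, array weights, only the groups compared, a replicate block and leaving out arrays.

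The genes and lists were chosen with earlier results of these data known. All 9 subunit genes are described. Of each partner list, up to 4 genes called against shCont are named by size of the mean hairpin change. Of the probe sets, those called with both hairpins, or else up to 3 per gene and direction by adjusted p for the mean of the hairpins, or the one of smallest p, are named; the other called probe sets were named after their values were seen. Likeness is given for the 2 subunit genes of smallest adjusted p for the mean of the hairpins. Promoters are RefSeq's (GRCm38.p6). Exon positions and probe sequences were not used here.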

Additional observations from a re-analysis of the deposited data

Results flagged for a closer look

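By the test of the difference between the hairpins (shTdp-43-2 minus shTdp-43-1, log2, limma, adjusted p under 0.05), 3 of the 37 partner genes were called higher and 6 lower. Of the 9 subunit genes 0 were called, at a background of 4.22% of all genes higher and 7.31% lower. That 0 is near these shares and does not set the subunit genes apart from their partners. Lower with shTdp-43-2 than with shTdp-43-1 were Frrs1l (-1.11), Akap5 (-0.93), Nptx1 (-0.84), Adarb1 (-0.63), Shisa6 (-0.61) and Adar (-0.41). Higher were Cacng2 (0.53), Gsg1l (0.51) and Cacng5 (0.47), of which Cacng5 was higher than shCont with both hairpins. The Tardbp level gave no such difference (0.026, limma, adjusted p = 0.956).

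By diffSplice, with one spread per gene, the usage of 4 subunit probe sets differed between the hairpins, shTdp-43-2 minus shTdp-43-1. Gria3 probe set 4846078 was at 0.87 (adjusted p = 0.0418) and Gria3 probe set 4959875 at -1.09 (adjusted p = 0.00236). Grik2 probe set 4815974 was at 0.82 (adjusted p = 0.0319) and Grik2 probe set 5397007 at -0.95 (adjusted p = 0.00556). With its own spread, limma called none of them (adjusted p = 0.744, 0.592, 0.758 and 0.217). Probe set 4846078 read 7.67, 6.65 and 5.89 with shTdp-43-2 and 6.04, 4.98 and 6.18 with shTdp-43-1, close to the brightness threshold, and the groups overlapped. Without shTdp-43-1 replicate 2 its adjusted p was 0.761 and without shTdp-43-2 replicate 1 it was 1.00. Probe set 4815974 read 7.51, 8.94 and 7.30 with shTdp-43-2 and 6.64, 6.70 and 7.58 with shTdp-43-1, and without shTdp-43-2 replicate 2 its adjusted p was 0.918. Probe set 5397007 read 7.87, 7.93 and 7.50 with shTdp-43-2 and 8.92, 7.96 and 8.73 with shTdp-43-1, without overlap, and without shTdp-43-1 replicate 1 its adjusted p was 0.193.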

How the results depend on the processing

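With 3 arrays per group the subunit changes, of up to about 0.40 on the log2 scale, sit near what the fit can call, so counts moved while directions held: Grik4 with shTdp-43-1 was called in 13 of 19 settings, Gria1 and Grik2 with shTdp-43-2 in 16 and 11 of 19, and for the mean of the hairpins Gria1, Grik2 and Grik4 in 6, 7 and 6 of 18, all with unchanged sign. Differences uncalled in the main fit were called in few settings. With shTdp-43-1 these were Gria3 in 3 and Grik3 in 1 of 19. With shTdp-43-2 they were Gria2 in 1, Grik1 in 3 and Grik3 in 3 of 19. For the mean they were Grik1 in 1 and Grik3 in 4 of 18. Only the groups compared gives no value for the mean of the hairpins. Causes were not tested.

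Subunit genes called with shTdp-43-1 numbered 1, and 0 with the median probe set, 3 with array weights, 0 without both shTdp-43-1 replicate 2 and shTdp-43-2 replicate 3, and 0 to 2 leaving out single arrays. With shTdp-43-2 they numbered 2, and 1 with the 25th percentile filter, no filter or the median, 4 with trend and robust eBayes, and 0 to 3 leaving out single arrays. For the mean of the hairpins they numbered 3, and 0 with the 25th percentile filter, no filter or the median, and 0 to 2 leaving out single arrays. Between the hairpins they numbered 0, and 2 with array weights (Grik1 and Grik4) and 0 to 1 leaving out single arrays. Partner genes for the mean of the hairpins numbered 10, and 4 with the median and 5 to 10 leaving out single arrays.

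Probe set usage calls with shTdp-43-1, shTdp-43-2, the mean and between hairpins numbered 1, 4, 3 and 4, and 0 in each with a probe set's own spread. Leaving out single arrays gave 0 to 3, 1 to 8, 0 to 3 and 0 to 5. Without both arrays named above, shTdp-43-2 gave 1 and the hairpin difference 2, and with either other filter the hairpin difference gave 2.

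Samples were not treated as paired by replicate number. Deviations of same-numbered arrays correlated at over 0.1 in 6 of 9 pairs, all those of replicates 1 and 3 and none of replicate 2 (-0.38 to 0.041), against 6 of 18 pairs of different numbers, of which shTdp-43-1 replicate 2 with shTdp-43-2 replicate 3 had the highest (0.68). With replicate number as a block, subunit calls were 1, 3, 2 and 0, with Grik3 added as lower with shTdp-43-2 (adjusted p = 0.0432) and for the mean (0.0424), where Gria1 and Grik2 were lost, and usage calls 6 with shTdp-43-1, 10 with shTdp-43-2 and 7 between the hairpins.

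Signs turned for 6 uncalled differences near 0. Gria2 with shTdp-43-1 (-0.0225) became 0.0054 with the median, 0.022 centred, 0.0069 by quantile normalization and 0.0043 with array weights, and Grik1 with shTdp-43-1 (0.053) became -0.0091 with array weights. Grik5 with shTdp-43-2 (-0.0026) became 0.081 centred, 0.037 by quantile normalization, 0.036 with array weights and 0.069 without both arrays. Between the hairpins, Grik3 (-0.057) became 0.012 with array weights, and Tardbp (0.026) became -0.051 with the median and -0.026 with array weights. Leaving out single arrays, these ran from -0.069 to 0.019 (Gria2), -0.081 to 0.15 (Grik1), -0.0765 to 0.069 (Grik5), -0.11 to 0.024 (Grik3), -0.15 to 0.20 (Tardbp) and, between the hairpins, -0.052 to 0.11 (Gria4).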
